A study of Mus musculus with 6 samples.

Results

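The chemokine receptors of macrophages and monocytes described here are 6 genes, Ccr1, Ccr2, Ccr7, Cx3cr1, Cxcr4 and Ccrl2, chosen by name. Each was found as 1 row, by its Ensembl identifier, among the 41388 genes of the deposited count tables, so that all 6 of 6 members were located. RNA was sequenced in bulk from macrophages of the aortic intima of atherosclerotic mice. All animals were ApoE -/- on a C57BL/6 background and received the diet given as WD for 28 weeks, and the series drew on 6 mice. There were 3 libraries of foamy and 3 of non-foamy macrophages. Foamy cells were live (PI-), high in BODIPY493/503, a dye for neutral lipid, high in side scatter, and positive for CD64 and CD11b. Non-foamy cells met the same CD64, CD11b and viability gates but were low in dye and in side scatter. Both populations therefore carried the Apoe deletion, came from aortas freed of adventitia, and went through the same enzymatic digestion at 37 °C for 70 min. No wild-type or chow-fed group was analysed here, and the labels name neither age nor sex. They also leave unsaid which of the 6 mice went into which library. The p-values below therefore describe variation among these 6 libraries, part or all of which may be technical.

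Chemokine receptors are seven-helix proteins of the cell membrane that couple to inhibitory G proteins and steer cells up gradients of chemokines. Ccr2 takes classical monocytes out of the bone marrow and into inflamed vessel walls, while Cx3cr1, the receptor of the membrane-bound chemokine fractalkine, is carried by patrolling monocytes and by many tissue macrophages and serves adhesion and survival. Both have long been studied in the arterial wall as routes by which monocytes enter or persist in plaque.

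Of the 6 genes, 4 lie on chromosome 9, where Ccr1 and Ccr2 belong to one cluster of receptor genes. In the deposited GRCm38 coordinates, Ccr1 spans chr9:123962126-123968692 on the minus strand and Ccr2 chr9:124101950-124113557 on the plus strand. Cx3cr1 spans chr9:119901616-120068283 and Ccrl2 chr9:111054835-111057270, both on the minus strand. Cxcr4 lies at chr1:128588199-128592293 and Ccr7 at chr11:99144196-99155077, also on the minus strand. Cx3cr1 was the one member whose span overlapped other genes, 5 in all, and it shared 0 exon bases with them.

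Chemokine receptors are related in sequence, which matters for reads of 50 bases. Of 6758 different words of 50 bases in the Ccr2 transcripts, 129 (1.909%) also occur in transcripts of other genes. For Cx3cr1 the figure was 47 of 4453 (1.055%), and for Ccr1, Ccr7, Cxcr4 and Ccrl2 it was 0. Nearly all positions of each member thus yield reads that differ from those of every other annotated gene, although how the authors treated reads with several matches is not stated.

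RefSeq promoter windows (GRCm38.p6, 250 bases before to 50 after a start) were matched for 5 of the 6 members, all but Ccr7. They were searched on both strands for 5 short motifs: GAGGAAGT (PU.1/ETS), TGANTCA (AP-1), GGANTTTCC (NF-kB), TTGCNNAA (C/EBP) and TATAAA (the TBP box). Shown are Cx3cr1, the called receptor with the lowest p-value, and Cxcr4 and Ccrl2, the members with a match, which is in capitals. The windows are chr9:120068247-120068546, chr1:128592250-128592549 and, at the upstream one of 3 listed Ccrl2 starts, chr9:111057469-111057768, each printed 5′ to 3′ on the minus strand.

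Cx3cr1: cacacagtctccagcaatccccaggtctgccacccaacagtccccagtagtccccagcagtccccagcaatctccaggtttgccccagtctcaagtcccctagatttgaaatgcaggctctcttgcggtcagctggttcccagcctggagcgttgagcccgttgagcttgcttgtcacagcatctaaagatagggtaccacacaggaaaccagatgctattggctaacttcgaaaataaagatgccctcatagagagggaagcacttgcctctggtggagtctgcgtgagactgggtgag
Cxcr4: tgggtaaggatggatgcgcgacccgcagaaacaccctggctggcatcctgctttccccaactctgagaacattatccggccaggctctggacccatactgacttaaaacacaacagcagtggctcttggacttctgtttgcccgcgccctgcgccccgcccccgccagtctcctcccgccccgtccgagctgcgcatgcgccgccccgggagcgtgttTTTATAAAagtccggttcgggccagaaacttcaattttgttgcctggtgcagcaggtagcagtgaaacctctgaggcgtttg
Ccrl2: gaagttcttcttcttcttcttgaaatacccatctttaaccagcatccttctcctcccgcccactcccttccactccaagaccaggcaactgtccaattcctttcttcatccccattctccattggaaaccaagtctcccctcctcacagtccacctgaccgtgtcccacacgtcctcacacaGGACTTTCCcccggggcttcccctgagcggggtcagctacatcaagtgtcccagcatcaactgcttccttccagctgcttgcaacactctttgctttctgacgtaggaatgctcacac

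In the Cxcr4 window TATAAA stood at positions -30 to -25 and its reverse complement TTTATA at -32 to -27, counted from the start, so that the matches overlap. TATAAA is present in 13.62% of the 32851 mouse promoter windows of that length. The upstream Ccrl2 window held GGACTTTCC at -68 to -60, a match to GGANTTTCC, which 1.25% of windows hold. Its start lies 248 bases from the deposited 5′ end of the gene, and the Ccrl2 windows at 0 and 26 bases from that end held no match. The windows of Ccr1, Ccr2 and Cx3cr1 held none of the 5 motifs, which are found in 3.2% (GAGGAAGT), 7.81% (TGANTCA) and 10.8% (TTGCNNAA) of windows for the other 3. The Ccr2 start lies 233 bases inside the deposited 5′ end, so its window falls almost wholly within the first deposited exon. Sequence upstream of that end was hardly searched for Ccr2. A match describes letters and not an occupied site.

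Libraries held from 15628627 to 24619075 counts in genes. Foamy libraries had a count in 15595 to 17757 genes and non-foamy libraries in 19380 to 24701, the highest number being in non-foamy library 1. Macrophage markers were abundant in every library, with 55800 to 63700 summed CPM (counts per 1000000, scaled between libraries by the trimmed mean of M-values, TMM) in foamy cells and 24100 to 37800 in non-foamy cells, a sum led by Lyz2, Cd68 and C1qb. Of the 11 markers 3 were called higher in foamy cells (Lyz2, Cd68 and Mertk) and 3 lower (Itgam, Adgre1 and Csf1r). Both gate markers were detected throughout. Fcgr1 (CD64) lay between 128.80 and 272.78 CPM, and Itgam (CD11b) between 70.29 and 151.39 CPM, with a log2 fold change of -0.87 for Itgam. edgeR's quasi-likelihood test with Benjamini-Hochberg adjustment called 611 of 11303 tested genes at an adjusted p below 0.05, 283 higher and 328 lower in foamy cells. Scaling by total counts alone changed that split to 165 higher and 614 lower and moved the median log2 fold change of all tested genes from -0.04 to -0.31.

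Every member with RNA in both groups was less abundant in foamy than in non-foamy macrophages. Ccr2 fell most, 58.7-fold, followed by Cx3cr1, 5.82-fold, and Ccr1, 2.19-fold. Of the 5 members tested, these 3 were called, all lower in foamy cells. Among all tested genes 5.41% were called in either direction and 2.90% were called lower. Cxcr4 and Ccrl2 were 1.62-fold and 1.54-fold less abundant and were not called. All 5 had non-overlapping groups, with every foamy library below every non-foamy one, which held for 13.3% of tested genes. The median log2 fold change of the 5 tested members was -1.13, beside -0.04 over all tested genes. Each of the 5 had at least 26 counts in every library, so none entered the test through 1 group alone. Ccr7 had counts in 2 non-foamy libraries only and was not tested. In bulk RNA, fewer cells of a type and less RNA per cell cannot be told apart.

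**Figure D1:**
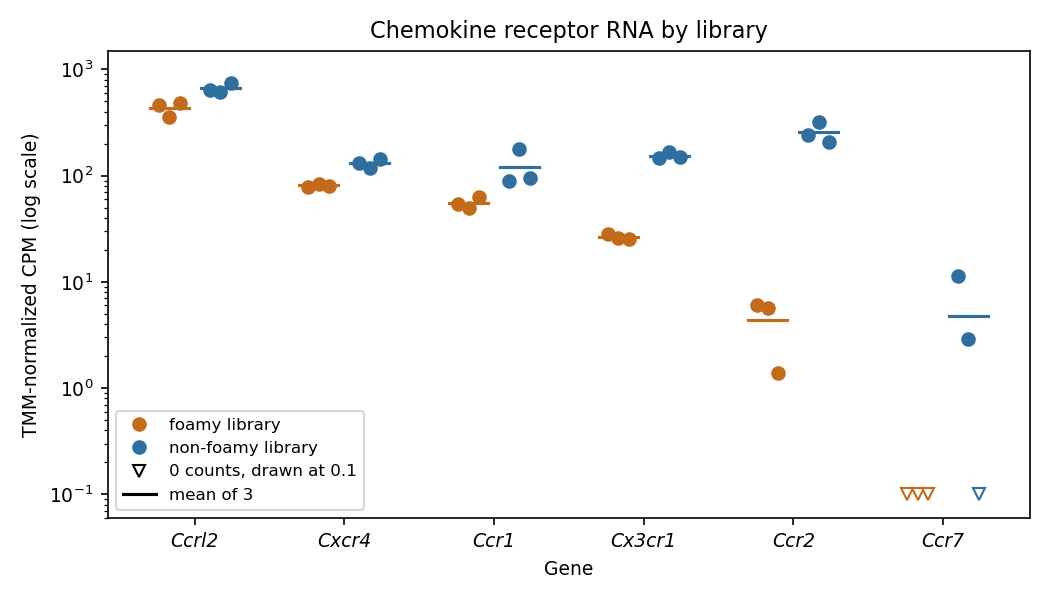
TMM-normalized CPM on a log scale for the 6 receptors in each library, foamy in orange and non-foamy in blue, with a line at the mean of 3 libraries and open triangles for 0 counts. The groups lie farthest apart for Ccr2 (1.4 to 6.08 against 208.42 to 321.60 CPM) and close together for Ccrl2 and Cxcr4.

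Ccr2 is the receptor of Ccl2, Ccl7 and Ccl12. It was counted at 6.08, 5.63 and 1.4 CPM in foamy libraries 1, 2 and 3, from 128, 101 and 26 counts. The non-foamy libraries held 241.52, 321.60 and 208.42 CPM. Foamy library 3 was the lowest of all, with an exact Poisson 95% interval of 0.916 to 2.05 CPM that does not reach those of foamy library 1 (5.07 to 7.22) or 2 (4.58 to 6.84). Such intervals cover counting error only, since amplified reads without molecular identifiers are not independent molecules. Group means were 4.37 ± 2.58 and 257 ± 58.2 CPM (SD, n = 3 each), and the log2 fold change was -5.87 (SE 0.48, edgeR adjusted p = 6.1e-05). By p-value Ccr2 ranked 16 of 11303 genes. It remained called in each of 16 alternative analyses, with values from -6.19 to -5.45.

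Cx3cr1, the fractalkine receptor, was counted at 28.48, 25.96 and 25.24 CPM in foamy libraries. It reached 146.84, 167.16 and 149.77 CPM in non-foamy ones. The libraries within each group were close to each other and the groups far apart. The means were 26.6 ± 1.70 and 155 ± 11 CPM (SD, n = 3 each), with a log2 fold change of -2.54 (SE 0.20, edgeR adjusted p = 5.6e-05). Cx3cr1 ranked 11 by p-value among the 11303 genes, ahead of Ccr2, whose change was larger but whose foamy libraries differed more. It too remained called in all 16 alternatives, from -2.81 to -2.44. Ccr2 and Cx3cr1 did not fall in proportion. Counts of Ccr2 per count of Cx3cr1 were 0.213, 0.217 and 0.0556 in foamy libraries and 1.64, 1.92 and 1.39 in non-foamy ones. The ratio was lower in every foamy library than in every non-foamy one. It compares libraries and not the levels of these genes, whose lengths differ, and it was not tested.

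Ccr1 binds inflammatory chemokines, among them Ccl3 and Ccl5, and is found on monocytes, macrophages and neutrophils. Its values were 53.73, 49.25 and 62.67 CPM in foamy and 89.70, 178.66 and 94.35 CPM in non-foamy libraries. Non-foamy library 2 stood far above the other two of its group, which were nearer to the foamy range. The group means were 55.2 ± 6.83 and 121 ± 50.1 CPM (SD, n = 3 each), with a log2 fold change of -1.13 (SE 0.28, edgeR adjusted p = 0.040). The call depended on the libraries and the model: without non-foamy library 2 the change was -0.73 (adjusted p = 0.15), and without foamy library 1, 2 or 3 the adjusted p was 0.14, 0.18 or 0.11. With limma-voom it was -1.05 (adjusted p = 0.051).

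Ccr7 is the receptor by which mature dendritic cells and lymphocytes follow Ccl19 and Ccl21 into lymph nodes, and it has been studied as an exit receptor of plaque macrophages. It had 0 counts in all 3 foamy libraries, where 3 counts would correspond to 0.142, 0.167 and 0.162 CPM. Non-foamy libraries 1, 2 and 3 held 211, 53 and 0 counts, or 11.43, 2.92 and 0 CPM. The groups therefore overlapped, since non-foamy library 3 had as few counts as the foamy libraries, and non-foamy library 1 supplied 79.9% of all its counts. Pooled over the non-foamy libraries the level was 4.26 CPM, at least 81.7-fold higher than a floor of 3 counts over the foamy group (0.0521 CPM). Without non-foamy library 1 that bound was 23.3-fold. Ccr7 did not pass the filter on low counts and has no test. Fits that let it pass do so through the non-foamy libraries alone, so no p-value is given.

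Some genes of dendritic and B cells, but not their marker lists as a whole, were also highest in non-foamy library 1. It held 5.09 CPM of Flt3, 14.25 CPM of Dpp4, 7.58 CPM of Ms4a1 and 3.68 CPM of Ccr6, each the highest value of the 6 libraries. Flt3 and Dpp4 mark dendritic cells, and Ms4a1 and Ccr6 are B cell genes. These 4 were picked after their values were seen. Other markers of those cells went either way. Ccl22 (3.63 CPM) and Zbtb46 (1.68 CPM) were also highest in non-foamy library 1, as were Xcr1, Itgae, Cd79a and Pax5, each below 1 CPM. Batf3 was at 2.17 CPM in that library and at 6.93 and 12.48 CPM in non-foamy libraries 2 and 3. Cd209a, Kmo and Siglech were highest in non-foamy library 2, and Clec9a was at 0 in all 3 non-foamy libraries. Ighm, at 555.24, 678.47 and 640.89 CPM, was lowest of its group in non-foamy library 1. Their part in the Ccr7 counts was not tested.

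Cxcr4, the receptor of Cxcl12, holds leukocytes in bone marrow and is widely present on macrophages. It was counted at 78.41, 83.57 and 80.41 CPM in foamy libraries. Non-foamy libraries held 132.43, 117.78 and 143.51 CPM. The ranges did not overlap, with means of 80.8 ± 2.61 and 131 ± 12.9 CPM (SD, n = 3 each). The log2 fold change of -0.70 (SE 0.19) had an edgeR adjusted p of 0.053 and was not called.

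Ccrl2 is an atypical receptor that does not signal through G proteins. It binds chemerin and presents it to cells that carry Cmklr1. Its level was 458.57, 353.47 and 483.01 CPM in foamy and 644.24, 612.76 and 738.04 CPM in non-foamy libraries, with foamy library 2 the lowest. The means were 432 ± 68.8 and 665 ± 65.2 CPM (SD, n = 3 each). The log2 fold change was -0.62 (SE 0.18, edgeR adjusted p = 0.076), which was not called.

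Cxcr4 and Ccrl2 lay close to the threshold, and 3 of 16 alternatives called them, both lower in foamy cells. With DESeq2 the adjusted p was 0.014 for Cxcr4 and 0.027 for Ccrl2. A stricter filter, which asked for 10 counts in each of 3 libraries and for 5 CPM on average, gave 0.032 and 0.041, and total-count scaling gave 0.014 and 0.0093. All 5 tested members were then called lower, beside 5.83% of genes with DESeq2, 5.01% with the stricter filter and 5.43% with total-count scaling. Under total-count scaling the log2 fold changes were -0.97 and -0.90. Measured from the median of all tested genes, the values were -0.65 and -0.59 under total-count scaling, and -0.66 and -0.58 with TMM. With no filter on low counts, where that median was -0.66, they were 0.06 for Cxcr4 and 0.14 for Ccrl2.

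**Figure D2:**
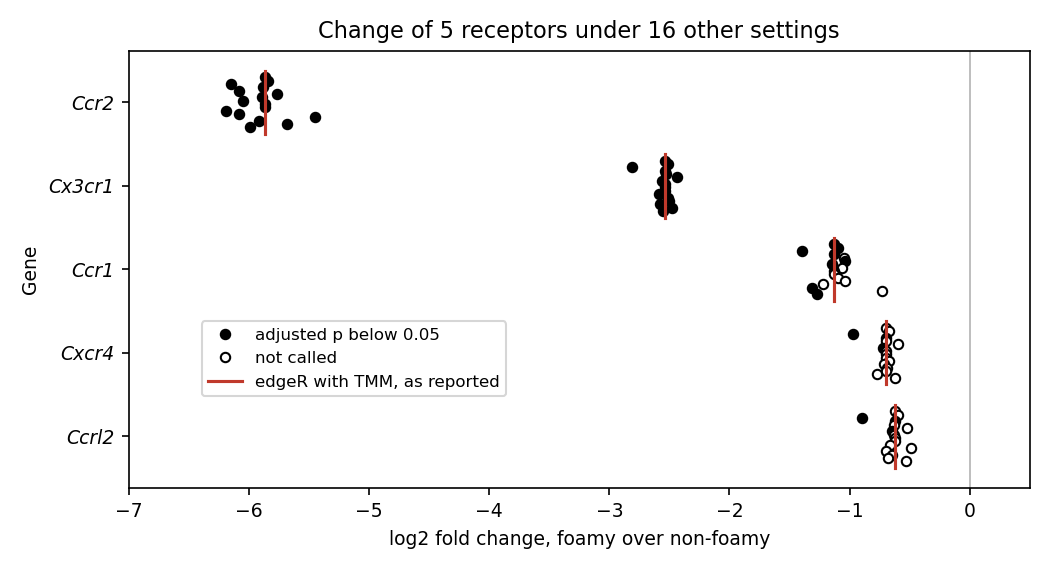
Log2 fold change (foamy over non-foamy) of the 5 tested receptors under each of 16 alternative analyses (points, filled where the adjusted p was below 0.05), with the TMM and edgeR value as a red line. All points lie below 0, and those of Ccr2 and Cx3cr1 are all filled, while those of Ccr1, Cxcr4 and Ccrl2 are filled in part.

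Levels can be compared between genes only per length, here as TMM-normalized CPM per kilobase of the gene length in the deposited tables. In foamy macrophages the order was Ccrl2 (205 ± 32.6), Cxcr4 (44.7 ± 1.44), Ccr1 (19.5 ± 2.41), Cx3cr1 (7.10 ± 0.454), Ccr2 (0.683 ± 0.403) and Ccr7 (0 in all 3), with SD and n = 3 for each. No neighbours in that order overlapped. In non-foamy macrophages Ccrl2 (315 ± 30.9) and Cxcr4 (72.6 ± 7.14) again came first and did not overlap. They were followed by Ccr1 (42.7 ± 17.7), Cx3cr1 (41.3 ± 2.93) and Ccr2 (40.2 ± 9.10), whose ranges overlapped, and by Ccr7 (2.42 ± 3.00). The members called lower therefore differed in level between themselves in foamy cells but not beyond their spread in non-foamy cells. The place of Ccr2 rests on a length of 6393 bases. With its shortest coding transcript (2265 bases) its non-foamy level would be 114 per kilobase, above that of Cxcr4.

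The make-up of the receptor family was taken as the share of each of 27 receptor genes, the 6 members and 21 others, in their summed level per kilobase. The 6 members together held 86.1% ± 0.568 of it in foamy and 86.3% ± 1.67 in non-foamy cells (SD, n = 3 each), with overlapping ranges. Within that total Ccrl2 took a larger part in foamy cells, 65.1%, 59.9% and 65.4% against 54.3%, 47.6% and 56.6%. Cx3cr1 took 2.23% ± 0.280 against 6.93% ± 0.424, and Ccr2 0.221% ± 0.138 against 6.75% ± 1.48, both without overlap. The shares of Cxcr4 (14.1% ± 2.13 against 12.2% ± 1.31) and Ccr1 (6.08% ± 0.344 against 7.13% ± 2.79) overlapped. A share rises when other members fall, so the larger share of Ccrl2 stands beside its lower level.

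**Figure D3:**
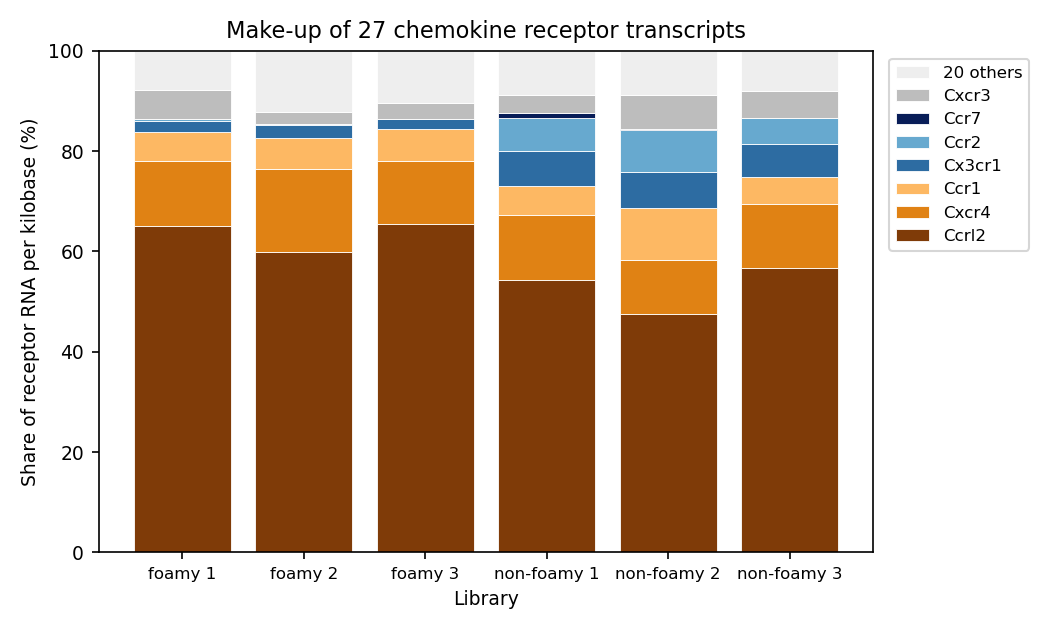
Stacked shares (%) of 27 chemokine receptor genes in their summed level per kilobase, 1 bar per library. Ccrl2 (dark brown) fills 59.9% to 65.4% of the foamy bars and 47.6% to 56.6% of the non-foamy bars, while Cx3cr1 and Ccr2 (blue) are broad in the non-foamy bars only.

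Among the 21 other chemokine receptors, 5 passed the filter and none was called by edgeR. At an unadjusted p below 0.05 there were 2, both lower in foamy cells, beside 10.1% of all tested genes that were lower at that p, and DESeq2 called 2. The groups of 3 of the 5 did not overlap, all lower in foamy cells, which held for 13.3% of all tested genes. The median log2 fold change of the 5 was -0.87, beside -0.04 over all tested genes. Cxcr3, a receptor of interferon-induced chemokines best known from T cells, was counted at 34.08, 11.53 and 18.82 CPM in foamy and 34.77, 70.40 and 56.41 CPM in non-foamy libraries. Its log2 fold change of -1.32 had an SE of 0.40 and an edgeR adjusted p of 0.085. Cmklr1, to which Ccrl2 presents chemerin, had overlapping groups (6.28 ± 2.85 and 13 ± 5.80 CPM, SD, n = 3 each). Another 10 of the 21 stayed under 1 CPM in every library.

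Of 15 ligands of the members, 12 were tested, 5 were called lower in foamy cells and 0 higher, beside 2.90% of all tested genes called lower. The median log2 fold change of the 12 was -1.12, beside -0.04 over all tested genes. The 5 were the Ccr2 ligands Ccl2, Ccl7 and Ccl12 and the inflammatory chemokines Ccl3 and Ccl4, and the same 5 were called under all 16 alternatives. Ccl2, the main attractant of classical monocytes, was counted at 406.51, 398.99 and 458.36 CPM in foamy and 1630.09, 3354.61 and 2724.01 CPM in non-foamy libraries. Its log2 fold change was -2.61 (SE 0.25, edgeR adjusted p = 0.00018). The changes were -3.33 for Ccl7, -3.23 for Ccl12, -3.00 for Ccl3 and -3.28 for Ccl4, each without overlap of the groups. Every foamy library lay below every non-foamy one for 13.3% of all tested genes. The Ccr1 ligands Ccl6 (1850 ± 204 and 1320 ± 611 CPM) and Ccl9 (289 ± 51.9 and 301 ± 156 CPM) had overlapping groups (foamy and non-foamy, SD, n = 3 each). The ligand of Cx3cr1, fractalkine (Cx3cl1), and the Ccr7 ligand Ccl19 were too low to be tested, and Ccl21a, another Ccr7 ligand, had 0 counts in all 6 libraries. Cxcl12 and Rarres2, which encodes chemerin, averaged under 4 CPM in both groups and were not called.

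**Figure D4:**
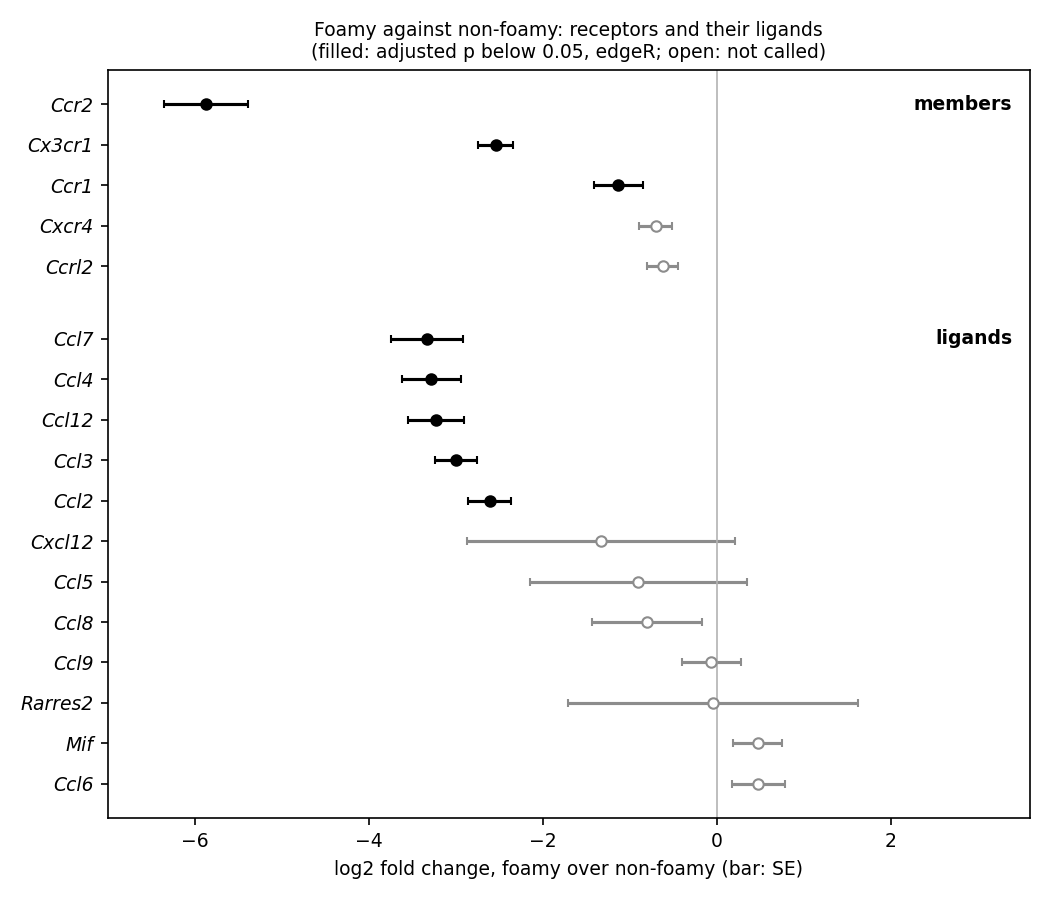
Log2 fold change (foamy over non-foamy) with SE for the tested members and the tested ligands, filled where the edgeR adjusted p was below 0.05. Ccr2 lies farthest from 0, at -5.87, and the 5 called ligands lie between -3.33 and -2.61.

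Downstream of the receptors, 38 of 40 signalling genes (G protein subunits, arrestins, receptor kinases, RGS proteins and the phosphoinositide kinase and Rac pathway) were tested. Only Rgs1 was called, lower in foamy cells, which is close to the 2.90% of all tested genes called lower. The median log2 fold change of the 38 was -0.26, beside -0.04 over all tested genes. Rgs1 speeds the return of G proteins to the inactive state and so dampens chemokine receptor signals. It was counted at 1896.62, 1893.81 and 2223.53 CPM in foamy and 2691.34, 3630.90 and 4023.23 CPM in non-foamy libraries, with a log2 fold change of -0.78 (SE 0.19, edgeR adjusted p = 0.037). Rgs1 was not called under a replicate block, in the test against a 1.5-fold change, or when foamy library 1, 2 or 3 or non-foamy library 2 or 3 was left out.

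The genes whose pattern over the 6 libraries was most like that of each member were found by the root mean square difference in centred log2 CPM, among 6090 genes with a mean of at least 10 CPM. For Ccr2 they were Lifr (0.243), a cytokine receptor subunit, Il1r2 (0.956), the interleukin-1 decoy receptor, and Plac8 (1.027), a marker of classical monocytes. Lifr lay at 1.12 and 63.7 CPM in foamy and non-foamy cells, while the other two were much less like Ccr2. For Cx3cr1 the nearest were Ehd1 (0.132), Tmem176b (0.182) and Cd86 (0.184), a costimulatory ligand. For Ccr1 they were Zbtb11 (0.138), Ipo11 (0.182) and Fmnl2 (0.208). Cxcr4 was nearest to Med11 (0.088), Exosc8 (0.090) and Tardbp (0.093), and Ccrl2 to Nvl (0.090), Tmpo (0.097) and Pgs1 (0.098). Many genes differ little between the groups, so close neighbours of Cxcr4 and Ccrl2 are common.

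Some monocyte, dendritic and B cell markers were lower in foamy cells as the receptors were, while some T cell and neutrophil markers and 1 natural killer marker were higher. Of 13 monocyte markers 12 were tested and 6 were called, all lower in foamy cells, beside 2.90% of all tested genes called lower. Among the called, Plac8 (0, 1 and 0 foamy counts), Vcan (0, 0 and 1) and Ly6c2 (5, 1 and 38) passed the filter through the non-foamy libraries. The filter thus favoured a lower call for these genes, and their calls add little to the count. Of the tested markers that were not called, F10 (log2 fold change 0.30) and Ace (0.17) lay above 0 and the rest below. The summed level of the 13 markers ranged from 72.0 to 76.3 CPM in foamy and from 362 to 375 CPM in non-foamy libraries. Nr4a1 (21.1 ± 5.03 against 167 ± 12.5 CPM) and Ms4a4c (11.3 ± 5.45 against 91.6 ± 11.6 CPM) were the most abundant of them (SD, n = 3 each), and Nr4a1 is also among the digestion genes. Ly6c2, which encodes the Ly6C antigen of classical monocytes, was counted at 0.24, 0.06 and 2.05 CPM in foamy and 13.32, 12.77 and 11.57 CPM in non-foamy libraries. Plac8 had 0 counts in foamy libraries 1 and 3, 0.06 CPM in foamy library 2 and 22.51 to 24.80 CPM in non-foamy libraries. The part of monocytes in the levels of Ccr2, Cx3cr1 and Ccr1 was not tested.

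Of 12 dendritic cell markers 5 were tested and 2 were called lower (Ccl22 and Kmo), beside 2.90% of all tested genes called lower. Ccl22 (0, 1 and 0 foamy counts) and Kmo (1, 1 and 0) passed the filter through the non-foamy libraries alone. Only a lower call was open to them, so these calls carry no weight as a result. The sum of the 12 was 8.35 to 21.4 CPM in foamy and 61.2 to 280 CPM in non-foamy libraries. Cd209a contributed most to it (5.00 ± 8.22 against 153 ± 111 CPM, SD, n = 3 each). Of 6 B cell markers 2 were tested and Ighm was called lower (89.1 ± 19.4 against 625 ± 63.2 CPM), in a sum of 94.2 to 124 against 579 to 694 CPM. T cell markers were low and summed to more in foamy libraries (25.2 to 38.6 CPM) than in non-foamy ones (2.68 to 7.49 CPM). That sum rested on Cd4 (17 ± 5.09 against 1.49 ± 1.71 CPM, called higher) and Cd28 (12.67 to 20.06 against 0.16 to 3.8 CPM, not called), while Cd3d, Cd3e, Cd3g and Trac stayed at or below 1.10 CPM in every library. Neutrophil markers summed to 44.7 to 70.0 CPM in foamy and 15.3 to 44.6 CPM in non-foamy libraries. Mmp8 was called higher (38.4 ± 7.60 against 5.62 ± 1.65 CPM) and S100a9 lower (0.018 ± 0.0311 against 7.13 ± 8.56 CPM), and Camp was at 0 throughout. S100a9, with 0, 0 and 1 foamy counts, also passed the filter through the non-foamy libraries alone. Of 6 natural killer markers only Klrb1c was tested, and it was called higher (2.55 ± 1.77 against 0.0545 ± 0.0542 CPM), beside 283 of 11303 tested genes called higher. Klrb1c, with 2, 1 and 0 non-foamy counts, passed the filter through the foamy libraries alone. The other 5, among them Ncr1 and Gzma, stayed under 1 CPM in every library. The summed levels of smooth muscle (3.8 to 31.8 against 4.24 to 27.7 CPM), endothelial (9.75 to 14.2 against 12.8 to 16.3 CPM) and fibroblast markers (2.84 to 171 against 11.8 to 307 CPM) overlapped between the groups. Genes known to rise during tissue digestion, headed by Zfp36, Fos and Dusp1, were called lower in foamy cells for 15 of 19 and higher for 0. Beside this, 2.90% of all tested genes were called lower. Sums of the digestion genes were 2620 to 3210 against 6240 to 8510 CPM. Their part in the receptor levels was not tested either.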

How the data were processed

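Libraries were made with the SMARTer Ultra Low RNA kit from sorted cells and sequenced as single reads of 50 bases, per the labels' protocols. The deposited tables hold, per gene, a count, CPM and RPKM for each library. STAR 2.0.4b, Subread, featureCounts 1.4.5 and GRCm38 are named in the submitters' processing notes. The strand setting and the handling of multiply matching reads were not given in the sources used here. The deposited CPM equals the count per 1000000 of the library's total, and the deposited RPKM equals CPM per kilobase of the listed length, each checked on every gene. Symbols were matched through GENCODE M21 for 40254 of 41388 identifiers.

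From the counts, edgeR 4.0.16 (filterByExpr, TMM, robust quasi-likelihood) tested 3 foamy against 3 non-foamy libraries over 11303 genes, with Benjamini-Hochberg adjustment and a threshold of 0.05. Total counts were 15628627 to 24619075. Levels are TMM-normalized CPM, with means ± SD. Alternatives were other scalings, filters and models (DESeq2 1.42.0, limma 3.58.1), a test against a 1.5-fold change, a replicate block, and leaving out each library. The fits were tested on simulated data. Exact Poisson intervals used scipy 1.17.1.

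The members and lists were chosen with earlier results of these data known. Named are all members, the genes of the other receptor, ligand and signalling lists that passed the test (at most 6 per list), the 3 genes most like each member, and markers with the highest mean CPM or at 0. Other named genes were chosen after their values were seen. They are Cxcr3, Cmklr1, the ligands that were not called, the gate markers Fcgr1 and Itgam, Ly6c2, Mertk, Adgre1, Csf1r, S100a9, Ncr1, Gzma, the T cell receptor genes, and the genes compared in non-foamy library 1. The same holds for F10, Ace and Vcan. Results that rest on 1 further gene are not reported here.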

Additional observations from a re-analysis of the deposited data

How the results depend on the processing

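Ccr2, Cx3cr1 and the 5 called ligands kept their direction and call under all 16 alternatives. Ccr1 was lost with limma-voom (-1.05), the replicate block (-1.06, adjusted p = 0.099) and the test against a 1.5-fold change (-1.13), and ranged from -1.31 to -0.73 with 1 library left out, its adjusted p from 0.0026 to 0.21 over all alternatives. Cxcr4 was called with total counts (-0.97), DESeq2 (-0.70) and the stricter filter (-0.72), and Ccrl2 likewise (-0.90, -0.62 and -0.65). Their adjusted p ranged from 0.014 to 0.69 and from 0.0093 to 0.85. Ccr7 was not tested, so it has no value to compare.

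Genes called numbered 611, against 1173 with DESeq2, 391 with the replicate block, 276 in the test against a 1.5-fold change, and 271 to 579 with 1 library left out (346, 316 and 271 without foamy library 1, 2 or 3, and 366 without non-foamy library 2). Other receptors called, all lower, numbered 2 of 5 tested with total counts, 2 of 5 with DESeq2 and 1 of 4 with the stricter filter. Of all tested genes 5.43%, 5.83% and 5.01% were called lower in these settings. With no filter 2 of 21 were called (Ccr6 and Cxcr3), beside 431 genes called lower in all. Ccr6 had 0 foamy counts and 68, 1 and 0 non-foamy counts, so its call rests on non-foamy library 1. With 1 library left out 0 to 1 of 5 were called (Cxcr3 without foamy library 1). Signalling genes called, all lower, numbered 2 of 38 with total counts, 3 of 38 with DESeq2 and 2 of 33 with the stricter filter, beside the same shares of all tested genes. None was called with the replicate block or in the test against a 1.5-fold change, and 0 to 1 of 38 with 1 library left out. The cause was not tested. Same-numbered libraries did not deviate together (correlations -0.071, -0.023 and -0.031). With 3 libraries per group, these values cannot show whether same-numbered libraries share a mouse or a sort, which the labels leave unsaid. Levels per kilobase with other transcript lengths, an alternative chosen after seeing the data, were 114 for Ccr2, 34.4 to 49.0 for Cx3cr1 and 270.0 to 357 for Ccrl2. The biological coefficient of variation over all tested genes was 0.51.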
